A study of Arabidopsis thaliana with 19 samples.

Results

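The 77 loci described here are those whose FPKM values in the libraries of 4D 8H, 4D 16H and 5D 8H did not overlap with the values in any other library of an Arabidopsis root time course. They were chosen by the measured values themselves: of 33201 loci in the table, 18087 had a mean of 1 FPKM or more and were tested, and a locus was taken when all 8 libraries of these 3 time points lay above, or all lay below, all 11 libraries of 4D, 5D, 5D 16H and 6D. 51 loci lay above (0.282% of the loci tested) and 26 lay below (0.144%). The difference between the 2 sets of libraries is therefore what chose the loci, and it is given as a description with no test. 4D 8H, 4D 16H and 5D 8H are ages that fall within a day, but so is 5D 16H, whose libraries lay with those of the full days, so the set is named by its time points and not as the within-day ages.

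The libraries came from roots of Arabidopsis thaliana seedlings that carried PET111:GFP, a reporter of the differentiated columella of the root cap, in every group. Cells without GFP were sorted from protoplasts of about the last millimetre of the root, a population the study treats as mostly stem cells but which by its gate holds every cell type of the tip except that columella. The 7 groups were 4D 8H (2 libraries), 4D 16H (3), 5D 8H (3), 4D (3), 5D (3), 5D 16H (2) and 6D (3). D gives the age in days and H the hours added to it, and age was the only labelled difference. The methods give replicates as separate batches of seed and place all collections at 1 time of day. FPKM (fragments scaled to transcript length and library size) is a relative unit, so fewer cells of a type and less RNA per cell cannot be told apart.

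The root meristem is maintained by a quiescent center, a small group of rarely dividing cells that keeps the adjoining stem cells undifferentiated. WOX5, a homeobox transcription factor of the quiescent center, PLT transcription factors, and signals such as brassinosteroids, cytokinin and CLE peptides are known for setting the balance between division and differentiation there. Brassinosteroids are plant steroid hormones made from sterols by a chain of oxidations, of which the last steps are carried out by the BR6OX enzymes.

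Low FPKM values fall in steps of about 1 read, from which depth can be estimated. It came to 10.6 to 38.5 M reads in 18 libraries and 1.22 M in 5D 16H replicate 2, where 20 of 76 members with an estimate (18 above, 2 below) rested on fewer than 10 reads. The upper quartile of FPKM, a general property of a library, itself separated the sets, at 31.5 to 32.5 FPKM in 4D 8H, 4D 16H and 5D 8H and 29.4 to 31.4 FPKM in the others. After scaling to this quartile 28 loci lay above and 76 below, and after quantile normalization 22 and 62, so that the larger direction depends on the scaling. All 28 and all 22 of those above were among the 51, and the 26 below were all among the 76, but 22 of the 26 were among the 62. Without 5D 16H replicate 2, 60 loci lay above and 31 below. Single libraries bound the counts: 186 loci above and 70 below without 4D 16H replicate 3, 86 and 79 without 4D replicate 1, 77 above without 5D 8H replicate 1, and 77 and 65 without 5D 8H replicate 2.

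Of the cell type markers checked, WOX5 alone separated the sets, and that is by the rule. The other quiescent center marker, AGL42, spanned 0.203 to 6.05 FPKM in 4D 8H, 4D 16H and 5D 8H and 0.291 to 6.94 FPKM in the other libraries. SHR, made in the stele, spanned 4.41 to 8.20 FPKM against 1.54 to 4.91 FPKM. AHK4, also of the stele, spanned 31.6 to 49.7 FPKM against 21.7 to 37.9 FPKM. MYB36 of the endodermis spanned 83.1 to 124.6 FPKM against 52.2 to 94.4 FPKM. SCR, also of the endodermis, spanned 7.77 to 10.31 FPKM against 4.70 to 10.97 FPKM. CASP1, a further endodermal gene, went the other way by median. It spanned 390.2 to 705.7 FPKM (median 462.9) against 281.0 to 889.7 FPKM (median 559.1). All of these stele and endodermis genes overlapped between the sets. The epidermal genes WER (34.5 to 57.5 FPKM against 24.0 to 57.0 FPKM) and GL2 (4.37 to 7.04 FPKM against 2.92 to 9.06 FPKM) overlapped widely. CO2, a cortex marker, reached at most 0.206 FPKM against 0.438 FPKM, so it was near 0 throughout. Summed over 7 root cap genes the level was 655.0 to 908.7 FPKM against 541.4 to 934.3 FPKM. The part of cell type shares in the members' pattern was not tested.

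Promoter sequences of the members were read from the TAIR10.1 assembly (RefSeq), 250 bases before each annotated start, to ask which short motifs they hold. The evening element (AAAATATCT), known for evening-phased genes of the circadian clock, is shown because its share among members above was 8.0% (4 of 50 promoters), against 2.44% of all 18010 promoters. 1 of 26 promoters of members below held it. The CCA1-binding site (AAAAATCT), also known from clock-regulated genes, was in 2 of 50 promoters above and none of 26 below, against 6.67% of all. The 6 matches follow in the sense of the gene, with the motif or its reverse complement in capitals and 10 bases on either side.
STO, above, chr1:1830017-1830045, minus strand, 52 bases before the start: gaatataataAAAATATCTaaaggtagga
AT1G73020, above, chr1:27473828-27473856, minus strand, 186 bases before the start: gtatttggggAAAATATCTcgacgcgttg
AT2G25190, above, chr2:10733710-10733738, plus strand, 201 bases before the start: caatataaatAAAATATCTagtttacatt
AT2G25190, above, chr2:10733869-10733897, plus strand, 42 bases before the start: aaataaaataAAAATATCTtaccatattt
SPC98, above, chr5:2056451-2056479, plus strand, 67 bases before the start: aaaaatgagaAGATATTTTgcataatgtt
AT3G47680, below, chr3:17579651-17579679, minus strand, 92 bases before the start: atcttaattaAGATATTTTcttaaaacta

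Site II (TGGGCC on either strand), known from promoters of growth genes, was in 8 of 26 promoters below (30.8%) and 4 of 50 above (8.0%), against 16.7% of all. The promoter of LTI30, the member below with the widest gap, is shown since it held 3 matches, in capitals, at 150, 131 and 123 bases before the start (plus strand, chr3:18940393-18940642).
LTI30: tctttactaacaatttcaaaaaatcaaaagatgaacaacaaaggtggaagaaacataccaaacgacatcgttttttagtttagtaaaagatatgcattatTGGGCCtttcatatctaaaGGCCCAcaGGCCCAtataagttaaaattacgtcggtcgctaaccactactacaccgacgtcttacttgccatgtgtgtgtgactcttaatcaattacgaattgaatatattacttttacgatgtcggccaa

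Other motifs searched on both strands differed in the same descriptive sense. The G-box (CACGTG) was in 4.0% of promoters above and 15.4% below (all, 7.47%), and the core of the W-box (TTGACC) in 6.0% and 19.2% (all, 12.5%). The TATA box (TATAAA) was in 26 of 50 and 10 of 26 promoters (all, 46.8%). No promoter of a member held either E2F site searched, TTTCCCGC or TTTGGCGC, which were in 0.622% and 0.389% of all promoters. These matches are letters in a window and are not evidence that a factor binds there.

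The members above exceeded the other libraries by modest ratios. The ratio of the mean of the 8 libraries to the mean of the 11 others ran from 1.14 to 2.35 with a median of 1.47, and 3 of 51 were at 2 or more. The gap between the lowest of the 8 and the highest of the 11, on log2(FPKM + 1), ran from 3.4e-05 to 0.27 with a median of 0.046. The members below were lower by ratios (others over the 8) of 1.16 to 2.73, with a median of 1.27, and WOX5 alone exceeded 2. Their gaps ran from 0.0021 to 0.14 with a median of 0.035.

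**Figure D1:**
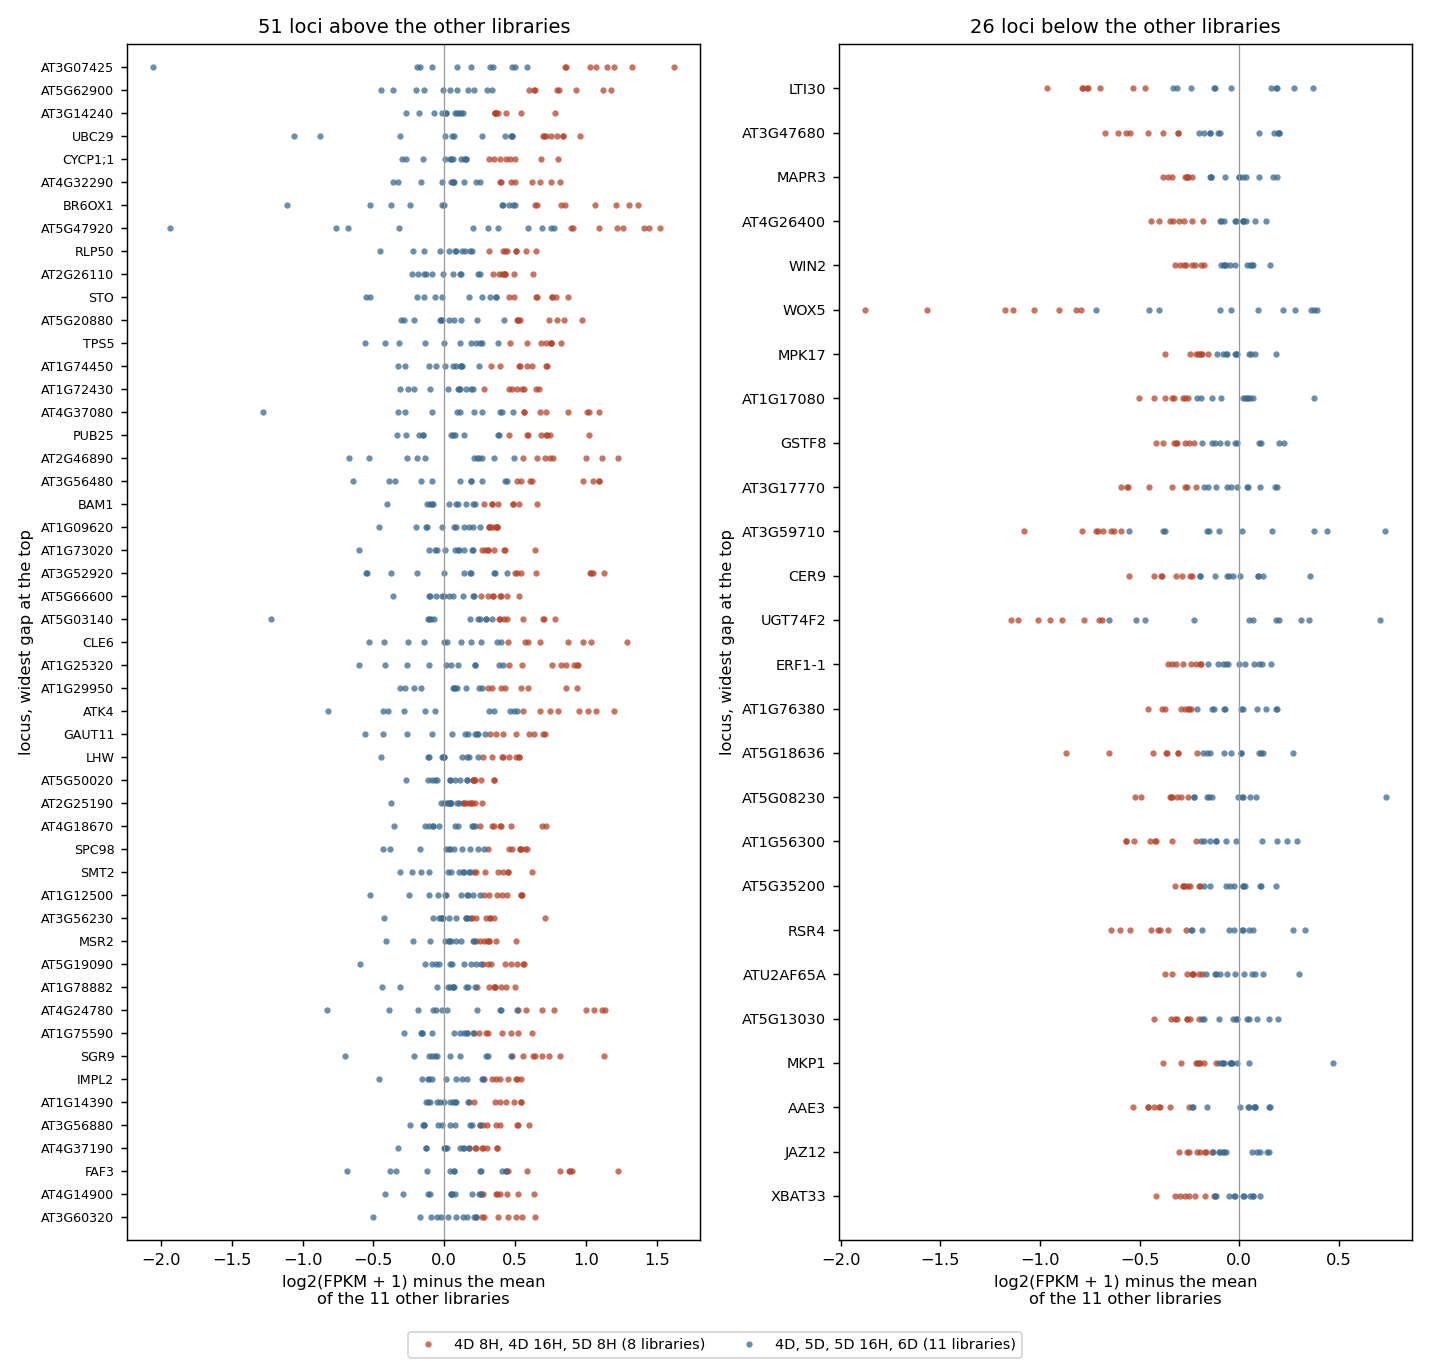
Each row is 1 of the 77 loci and each point 1 of the 19 libraries, plotted as log2(FPKM + 1) minus the mean of the 11 other libraries, with 4D 8H, 4D 16H and 5D 8H in red and 4D, 5D, 5D 16H and 6D in blue. The red points lie right of all blue ones in the 51 rows at left and left of all blue ones in the 26 rows at right, and the gap between colours is at most 0.27 and 0.14 on the log2 scale.

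Among the members above, the hormone gene was BR6OX1 (AT5G38970; chr5:15594674-15598089 of TAIR10.1, minus strand), which encodes a brassinosteroid-6-oxidase. It had 14.7 and 13.0 FPKM at 4D 8H, 11.7, 14.0 and 9.95 FPKM in 4D 16H, and 9.74, 8.55 and 8.44 FPKM at 5D 8H, against 7.33, 7.51 and 5.06 FPKM at 4D, 7.10, 7.60 and 7.05 FPKM in 5D, 3.67 and 5.00 FPKM for 5D 16H, and 4.12, 3.22 and 1.81 FPKM at 6D. The mean was 11.3 ± 2.44 FPKM (SD, n = 8) against 5.41 ± 2.03 FPKM (SD, n = 11), a ratio of 2.08. The lowest libraries of the higher set were those of 5D 8H and the highest of the others were those of 4D and 5D, while 5D 16H and 6D were lowest of all.

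Other genes of brassinosteroid synthesis and signalling were taken from a list. For genes outside the members, the mean of 4D 8H, 4D 16H and 5D 8H was compared with the mean of 4D, 5D, 5D 16H and 6D in limma, a contrast that was chosen after the members' pattern was seen and that called 18.3% of all loci higher and 7.1% lower at an adjusted p under 0.05. Of the 9 brassinosteroid genes tested besides BR6OX1, 3 were called higher and none lower, and all 3 encode enzymes of synthesis. BR6OX2, the other 6-oxidase, had 18.9 to 31.8 FPKM (median 24.6) against 8.58 to 23.0 FPKM (median 15.6), a log2 difference of 0.83 (SE 0.08). DWF4, which carries out a rate-limiting hydroxylation, had 17.2 to 31.8 FPKM (median 23.65) against 6.67 to 22.9 FPKM (median 14.3), a log2 difference of 0.86 (SE 0.12). CPD had 15.1 to 26.3 FPKM (median 22.6) against 5.35 to 20.8 FPKM (median 14.7), a log2 difference of 0.68 (SE 0.14). The ranges of these 3 enzymes overlapped between the sets, unlike those of BR6OX1. The receptor BRI1 (log2 difference 0.15, SE 0.07, adjusted p = 0.126) and the reductase DET2 (log2 difference -0.01, SE 0.14) did not pass the limma test. SMT2, a sterol methyltransferase that was not on that list, is a member above. It had 34.4 to 46.0 FPKM (median 39.3) against 23.64 to 33.8 FPKM (median 30.7). SMT2 and the other members described below that are outside the 15 widest gaps were named after their values were seen, for their known roles.

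Some members above, grouped here only for description, encode regulators and signalling proteins. STO (BBX24, AT1G06040), a B-box protein known in light signalling, had 68.2 and 69.6 FPKM at 4D 8H, 62.9, 68.3 and 55.2 FPKM in 4D 16H and 73.7, 56.5 and 63.4 FPKM at 5D 8H, against 26.9 to 51.6 FPKM (median 39.5) in the others. The 5D libraries, at 48.10, 51.65 and 49.997 FPKM, came closest together with 4D replicate 1 (51.6 FPKM), and 5D 16H replicate 2 was lowest. AT1G06045 lies on the other strand over part of STO.

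CLE6, a CLE signalling peptide, and BAM1, a receptor kinase known to bind CLE peptides, were both above. CLE6 had 19.2 to 35.2 FPKM (median 24.4) against 9.29 to 18.6 FPKM (median 14.0). BAM1 had 20.7 to 27.2 FPKM (median 23.1) against 12.5 to 19.7 FPKM (median 17.3). Both were highest in 4D 8H replicate 1.

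LHW, a bHLH protein that with TMO5 promotes divisions of the vascular precursors, had 12.15 and 11.97 FPKM at 4D 8H, 11.6, 12.2 and 11.2 FPKM in 4D 16H and 10.1, 11.1 and 10.6 FPKM at 5D 8H. In the others it had 5.72 to 9.77 FPKM (median 8.12), with 5D highest at 9.31, 9.77 and 9.24 FPKM and 6D replicate 3 lowest. TMO5 is not a member: it had 11.3 to 29.2 FPKM (median 19.4) against 8.10 to 19.8 FPKM (median 11.8), a log2 difference of 0.60 (SE 0.13), and 2 of the 7 xylem genes tested apart from LHW (TMO5 and VND7) were called higher, beside 18.3% of all loci.

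Cell division genes above included a cyclin and 2 microtubule genes. CYCP1;1 (AT3G63120), a P-type cyclin, had 44.8 and 48.2 FPKM at 4D 8H, 59.6, 55.0 and 43.4 FPKM in 4D 16H and 47.1, 42.4 and 45.9 FPKM at 5D 8H, against 27.4 to 37.8 FPKM (median 34.9) in the others. ATK4, a kinesin of the minus-end-directed class, had 19.5 to 31.0 FPKM (median 24.7) against 6.90 to 18.96 FPKM (median 12.4). SPC98, a subunit of the gamma-tubulin complex that nucleates microtubules, had 2.90 to 3.70 FPKM (median 3.54) against 1.33 to 2.81 FPKM (median 2.22). Of the lists for S phase (16 genes tested) and for G2 and mitosis (22), 4 genes each were called higher in limma, beside 18.3% of all loci, and no gene was a member.

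A few members of either direction encode proteins of ubiquitin transfer. Counted by words in gene symbols and products, F-box, RING and ubiquitin proteins were 2 of 50 members above and 2 of 26 below. These shares were 4.0% and 7.69%, against 4.08% of all loci. PUB25 and XBAT33, named here for their known roles, were not caught by those words. UBC29 (AT2G16740), a ubiquitin-conjugating enzyme, had 17.3 and 19.1 FPKM at 4D 8H, 20.8, 17.2 and 17.9 FPKM in 4D 16H and 19.04, 17.5 and 18.5 FPKM at 5D 8H, a narrow range of 17.2 to 20.8 FPKM. The others spread from 4.39 to 14.7 FPKM (median 10.8), with all 3 libraries of 6D lowest. The U-box ligase PUB25 had 7.86 to 12.1 FPKM (median 9.46) against 4.11 to 7.43 FPKM (median 5.65), and SGR9, a RING protein known in gravitropism, 3.15 to 5.51 FPKM (median 3.72) against 0.835 to 3.13 FPKM (median 1.87). CER9, XBAT33 and AT4G26400, which carry or are related to RING-type ligases, were below.

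**Figure D2:**
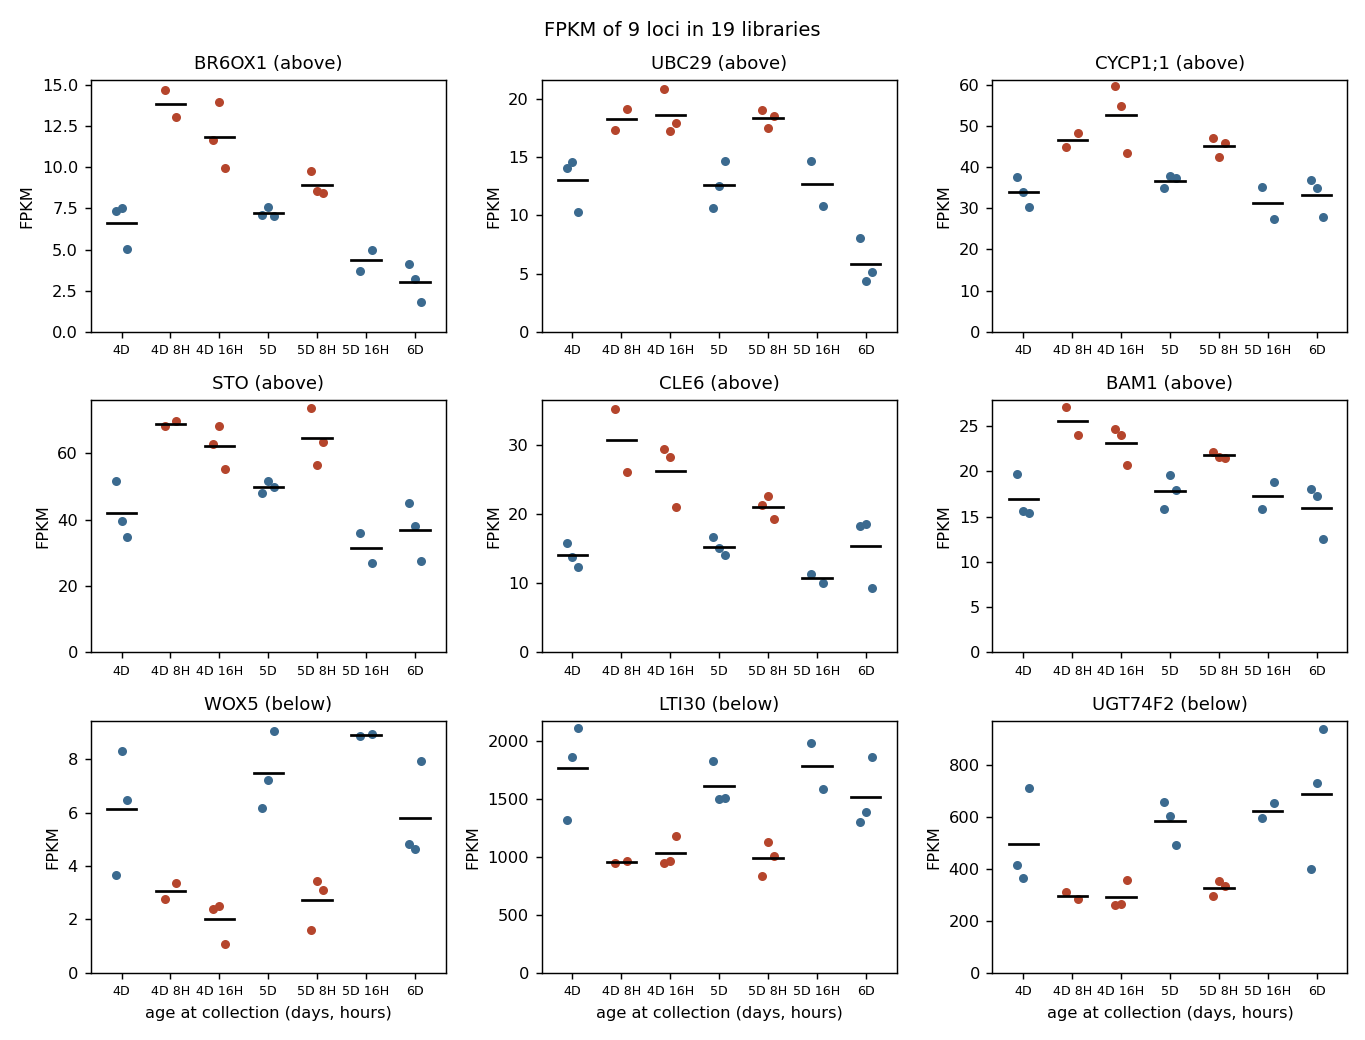
FPKM (vertical axis, from 0) of 9 members in each of the 19 libraries by age at collection, with 4D 8H, 4D 16H and 5D 8H in red, 4D, 5D, 5D 16H and 6D in blue and black bars at the time-point mean (n = 2 or 3). BR6OX1, UBC29, CYCP1;1, STO, CLE6 and BAM1 are higher in the red libraries (BR6OX1 8.44 to 14.7 FPKM against 1.81 to 7.60 FPKM), and WOX5, LTI30 and UGT74F2 are lower.

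The remaining wide gaps above belonged to genes of less certain role. The widest was AT3G07425, an uncharacterized protein with 6.51 to 11.8 FPKM (median 7.96) against 0 to 5.23 FPKM (median 3.72), where the 0 is a listed value in the shallow library 5D 16H replicate 2. AT5G62900 (annotated as a bZIP factor) had 18.6 to 28.4 FPKM (median 21.6) against 8.53 to 15.4 FPKM (median 12.4). AT5G47920 (annotated as a transcription elongation factor) had 14.3 to 22.6 FPKM (median 18.4) against 1.15 to 13.0 FPKM (median 9.17).

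Among the 15 widest gaps above were also the subtilase AT3G14240, AT4G32290, RLP50, AT2G26110, the pseudogene AT5G20880, AT1G74450, the SAUR-like AT1G72430 and TPS5 of the trehalose phosphate synthase family. Their ratios of means lay between 1.39 for AT2G26110 and 1.83 for AT5G20880. TPS5 had 7.20 to 9.52 FPKM (median 8.89) against 3.03 to 6.72 FPKM (median 5.43). All 15 stayed above after upper quartile scaling and 13 after quantile normalization, against 13 and 9 of the other 36. The smallest gaps above were those of FAF3 (20.16 to 35.55 FPKM against 8.71 to 20.13 FPKM), AT4G14900 and AT3G60320 (9.59 to 13.1 FPKM against 5.41 to 9.59 FPKM). Just outside were AT2G05812, AT2G46620 and AT3G51950, which overlapped by less than 0.001 on the log2 scale (AT2G46620, 35.03 to 44.9 FPKM against 23.4 to 35.04 FPKM).

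Below, the largest ratio was that of WOX5 (AT3G11260; chr3:3527280-3528440 of TAIR10.1, plus strand). It had 2.77 and 3.37 FPKM at 4D 8H, 2.404, 2.50 and 1.09 FPKM in 4D 16H and 1.60, 3.43 and 3.12 FPKM at 5D 8H, against 3.67, 8.32 and 6.48 FPKM at 4D, 6.19, 7.22 and 9.06 FPKM in 5D, 8.87 and 8.96 FPKM for 5D 16H and 4.81, 4.63 and 7.96 FPKM at 6D. The mean was 2.53 ± 0.833 FPKM (SD, n = 8) against 6.92 ± 1.92 FPKM (SD, n = 11), and the other libraries had 2.73 times as much. 4D replicate 1 was lowest of the 11, while both 5D 16H libraries were near the top. The reads behind WOX5 were few, at an estimated 9.30 in 5D 16H replicate 2, the shallow library. In the rest of the libraries the estimate was 10.8 to 297 reads (median 59.0).

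Of the 13 root meristem regulators tested besides WOX5, 6 were called higher in limma at 4D 8H, 4D 16H and 5D 8H and 1, AGL42, lower, beside 18.3% and 7.1% of all loci. PLT1 had 4.75 to 9.23 FPKM (median 7.51) against 1.88 to 6.26 FPKM (median 3.87), a log2 difference of 0.71 (SE 0.13), and PLT2 4.15 to 6.54 FPKM (median 5.12) against 2.11 to 5.41 FPKM (median 3.76), a log2 difference of 0.36 (SE 0.08). AGL42 had a log2 difference of -0.52 (SE 0.13, adjusted p = 0.0107 in limma), but it did not follow the sets by age. It was at 0.203 to 1.19 FPKM at 4D 8H and 4D 16H, above the 0.291 to 0.784 FPKM of 4D in 4 of 5 libraries, and 4.58 to 6.05 FPKM at 5D 8H stood beside 4.26 to 5.76 FPKM at 5D. RBR1, the retinoblastoma protein that restrains the cell cycle, showed no change past the test (log2 difference 0.01, SE 0.06).

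Some members below, grouped here only for description, are known from stress responses. LTI30 (AT3G50970), a dehydrin that accumulates in cold and drought, had 949 and 968 FPKM at 4D 8H, 948, 964 and 1177 FPKM in 4D 16H and 838, 1129.7 and 1008 FPKM at 5D 8H, against 1317, 1865 and 2113 FPKM at 4D, 1826, 1501 and 1507 FPKM in 5D, 1983 and 1590.2 FPKM for 5D 16H and 1299, 1383 and 1861 FPKM at 6D. Its gap of 0.14 was the widest below, and its libraries at 4D replicate 1 and 6D replicate 1 came closest to the lower set. UGT74F2, which glucosylates salicylic acid, had 258.9 to 355.6 FPKM (median 303) against 364.7 to 936 FPKM (median 601). GSTF8, a glutathione S-transferase, had 1065 to 1213 FPKM (median 1143) against 1251 to 1661 FPKM (median 1399.6).

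Further members below encode signalling and metabolic proteins. MPK17, a MAP kinase, had 169.9 to 197 FPKM (median 191) against 204 to 250.1 FPKM (median 218), and MKP1, a phosphatase of MAP kinases, 20.22 to 24.5 FPKM (median 22.9) against 24.8 to 37.4 FPKM (median 25.9). JAZ12, a repressor of jasmonate responses, had 72.5 to 81.3 FPKM (median 77.6) against 81.8 to 99.6 FPKM (median 85.6). RSR4, an enzyme of vitamin B6 synthesis, had 233 to 304 FPKM (median 272) against 308 to 458 FPKM (median 369).

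Among the 15 widest gaps below were further MAPR3, WIN2, AT1G17080, AT3G17770, AT3G59710, the release factor ERF1-1, AT1G76380, CER9, AT4G26400 and AT3G47680. AT3G59710 had 62.5 to 88.1 FPKM (median 81.9) against 90.6 to 222 FPKM (median 124). The smallest gaps below were those of AAE3, JAZ12 and XBAT33, of which XBAT33 had 0.0021 on the log2 scale. Just outside were ACX5 (4.35 to 7.55 FPKM against 7.53 to 11.4 FPKM), ALDH7B4 and AT3G63070.

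The mean level over 19 libraries, on which the rule set its minimum, had a median of 13.1 FPKM above and 79.0 FPKM below, against 11.3 FPKM over all loci tested. Gene structure and position were not used by the rule. 18 of 50 annotated members above (36.0%) had 1 exon, against 3 of 26 below (11.5%) and 16.7% of all loci. Transcript length had a median of 1901 nucleotides above and 1811 below, against 1705 over all. The span of 10 members above and 11 below overlapped another gene, and their values may hold reads of it where strand was not used in counting. AT5G20880, above, and JAZ12, below, lie 7.48 kb apart on chromosome 5.

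By age, the members above were high at 3 ages and low at the full days and at 5D 16H, as the rule requires. Relative to the mean of the 11 others, their median log2 level was 0.04 at 4D, 0.54 at 4D 8H, 0.49 at 4D 16H, 0.13 at 5D, 0.48 at 5D 8H, -0.12 at 5D 16H and -0.10 at 6D. Of the others, 5D was nearest to the higher set for 31 of 51 loci, while 6D was farthest for 24 and 5D 16H for 22. The members below were at -0.04, -0.33, -0.34, -0.02, -0.33, 0.02 and 0.02 in the same order.

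**Figure D3:**
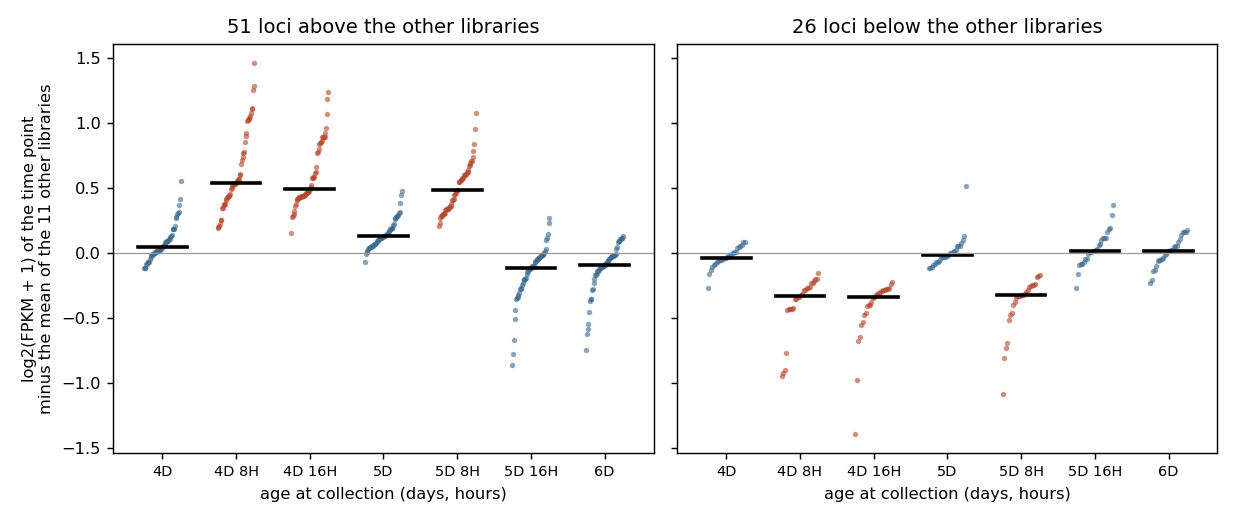
Log2(FPKM + 1) of each time point minus the mean of the 11 other libraries for the 51 loci above (left) and the 26 below (right), by age at collection, with 1 point per locus and black bars at the median. The medians above are 0.54, 0.49 and 0.48 at 4D 8H, 4D 16H and 5D 8H and at most 0.13 at the other ages, and those below are -0.33, -0.34 and -0.33 against -0.04 to 0.02.

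To ask whether members also changed within each side, where the rule set no order, 6 comparisons were tested with limma over all 18087 loci and are read for the members. The rule does limit how far values of a member can spread toward the other side, and so the size of these differences. Few calls among members can therefore follow from the rule. Between 4D 16H and 4D 8H no member was called (background, 0% higher and 0% lower). At an unadjusted p under 0.05 in limma were 2 of 77 members, beside 780 of all 18087 loci. Between 5D 8H and the mean of 4D 8H and 4D 16H no member was called (background, 0.984% higher and 0.879% lower). An unadjusted p under 0.05 in limma was reached by 7 of 51 members above, beside 3365 of all 18087 loci. BR6OX1 had a log2 difference of -0.47 (SE 0.17, adjusted p = 0.152 in limma) there. With sample weights, added after seeing the data, 11 members (14.3%) were called, all lower, beside 20.8% of all loci.

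From 4D to 5D no member passed (background, 0.569% higher and 0.735% lower). At an unadjusted p under 0.05 in limma were 2 of 77 members, beside 2186 of all 18087 loci. AT3G59710 came nearest, with 222, 181 and 173 FPKM at 5D against 102, 149 and 124 FPKM at 4D and a log2 difference of 0.62 (SE 0.15, adjusted p = 0.0645 in limma). The difference between the 0 to 8 h steps of day 5 and day 4 was called for no member and no other locus (0% in either direction). Unadjusted, 3 of 77 members had a limma p under 0.05, beside 1031 of all 18087 loci. Whether the step was of equal size on both days is not shown by the lack of calls.

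From 5D to 6D, 7 of 51 members above and 1 of 26 below fell in limma and none rose, beside 8.67% of all loci lower and 4.24% higher. ATK4 had 9.62, 9.36 and 6.90 FPKM at 6D against 16.8, 16.4 and 18.7 FPKM at 5D, a log2 difference of -0.94 (SE 0.16, adjusted p = 0.0015). UBC29 had 8.06, 4.39 and 5.11 FPKM at 6D against 10.6, 12.5 and 14.7 FPKM at 5D, a log2 difference of -1.02 (SE 0.18, adjusted p = 0.00185). BR6OX1 had 4.12, 3.22 and 1.81 FPKM at 6D against 7.10, 7.60 and 7.05 FPKM at 5D, a log2 difference of -1.07 (SE 0.19, adjusted p = 0.00201). The groups did not overlap in any of the 3. The other members above called lower were AT3G56480, AT3G52920, AT1G75590 and AT2G46890, which were named because they passed. The one below was AT3G59710 (119.95, 103 and 119 FPKM at 6D against 222, 181 and 173 FPKM at 5D). Over all 51 the median log2 difference was -0.21, against 0.01 over all loci. The 51 are not separate readings of this step, since they varied together between replicates. With time-point means removed, their pairs had a median r of 0.48 over the 11 other libraries. Their mean log2 level relative to those 11 was -0.36 in 6D replicate 3, against 0.02 and -0.04 in 6D replicates 1 and 2. With sample weights 13 members were called lower and 1 higher (18.18%), beside 23.58% of all loci.

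At 5D 16H, set against the mean of 4D, 5D and 6D, 3 of 51 members above were lower in limma and no member below was called, beside 4.61% of all loci lower and 3.52% higher. AT4G37080 had 3.81 and 1.40 FPKM at 5D 16H, and 3.65 to 7.14 FPKM over 4D, 5D and 6D, a log2 difference of -0.95 (SE 0.18, adjusted p = 0.0092). AT1G25320, a receptor-like kinase, had 1.54 and 1.88 FPKM at 5D 16H, and 2.21 to 4.13 FPKM over 4D, 5D and 6D (log2 difference -0.62, SE 0.15, adjusted p = 0.0225). AT1G73020, annotated as anoctamin-like, had 5.81 and 3.82 FPKM at 5D 16H, and 5.99 to 7.45 FPKM over 4D, 5D and 6D (log2 difference -0.43, SE 0.12, adjusted p = 0.0429). AT4G37080 and AT1G73020 were lowest in 5D 16H replicate 2, the shallow library, whereas AT1G25320 was low in both libraries of that age. In the shallow library the estimates were only 4.29 reads for AT4G37080, 11.6 for AT1G73020 and 5.30 for AT1G25320. Leaving out either 5D 16H library leaves that age without a replicate. How far the calls depend on the shallow library is therefore not settled. Without 6D replicate 3, 7 members were called (9.09%, beside 9.68% of all loci). None was called with sample weights or with only those 4 time points fitted.

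**Figure D4:**
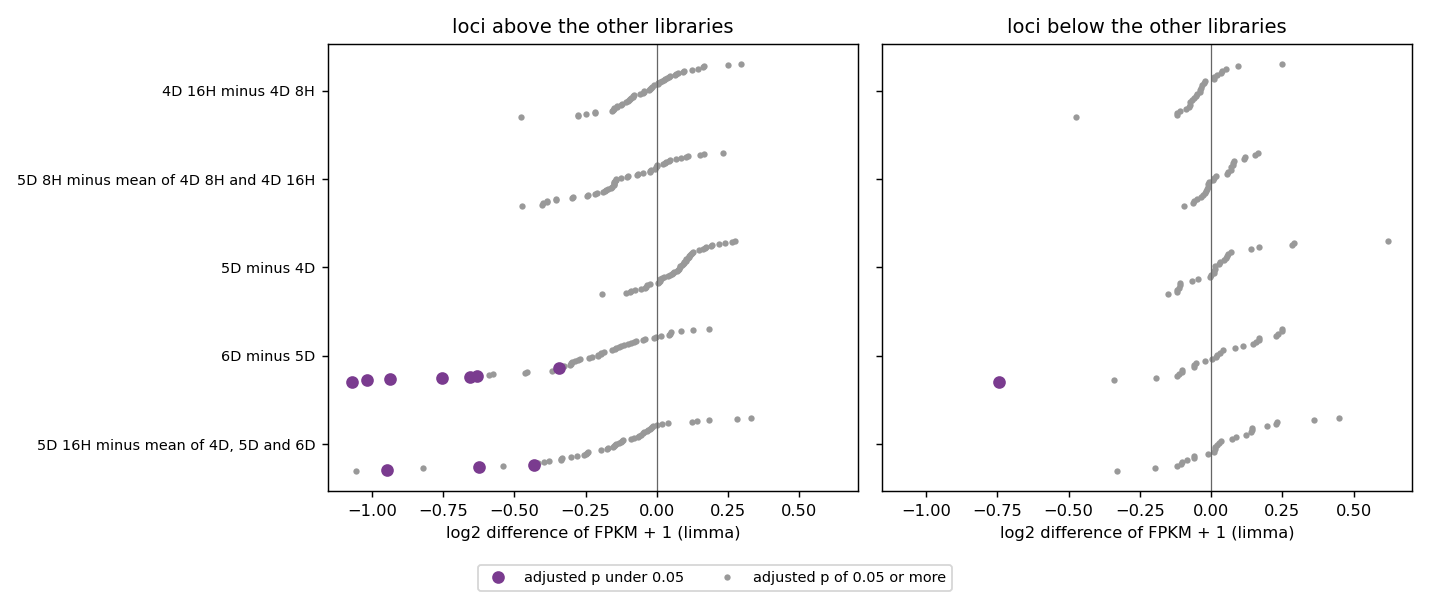
Limma log2 differences of FPKM + 1 for the members above (left) and below (right) in 5 comparisons, the later or tested age minus its comparator, with 1 point per locus, grey where the adjusted p was 0.05 or more and purple where it was less. Purple points stand at 6D minus 5D (7 above, 1 below) and at 5D 16H minus the mean of 4D, 5D and 6D (3 above), all left of 0.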

How the data were processed

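RNA of PET111:GFP-negative root tip cells was measured in 19 libraries at 7 ages. The authors deposited FPKM values per locus. The submitters' processing notes name TopHat and Cufflinks and the build TAIR10, whereas the methods name Bowtie, the Tuxedo tools and Rsubread. Versions are not given in the sources used here, and the labels and methods differ on the library kit. FPKM holds no counts, and an exact 0 can be a failed estimate. Titles gave each library its age and replicate number. No column of per-sample values was left unmapped.

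Members were found by the rule on FPKM as deposited. log2(FPKM + 1), a scale that understates changes of low loci, was tested with limma 3.58.1 (R 4.3.3). All 19 libraries were in 1 fit with a mean per time point and variances with a trend. Benjamini-Hochberg adjustment ran over 18087 loci at a threshold of 0.05. The members and the 29 gene lists (381 genes, 330 tested) were chosen with earlier results of these data known, and 3 list genes were members. Named members were the 15 widest gaps and 3 smallest gaps per direction, those on lists, and up to 3 per comparison with the smallest p among those called. Others are named for their known roles. Of 77 members, 76 matched the TAIR10.1 annotation by locus tag, and coordinates are from that assembly. Depth was estimated from steps in FPKM with an assumed fragment of 200 nucleotides. The tests were checked on simulated data.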

Additional observations from a re-analysis of the deposited data

How the results depend on the processing

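Counts of members chosen by the rule moved with scaling, at 28 above and 76 below after upper quartile scaling and 22 and 62 after quantile normalization, against 51 and 26. Leaving out 1 library at a time gave 51 to 186 above and 26 to 79 below. Leaving out libraries can only loosen the rule, so no such count could fall under 51 and 26. With both 5D 16H libraries left out, which was tried after seeing the data, 75 lay above and 40 below. A mean of at least 5 FPKM gave 43 and 24, and no filter 52 and 26.

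In the tests, members called at 5D 8H minus the mean of 4D 8H and 4D 16H numbered 11 with sample weights, against 0 in each other setting. For 5D minus 4D they were 0, with 1 at a mean of at least 5 FPKM, 1 with sample weights and 0 to 1 when a library was left out. For 6D minus 5D there were 8, with 14 under sample weights and 6 to 10 when a library was left out. For 5D 16H there were 3, with 1 at a mean of at least 5 FPKM, 0 with only the time points compared, 0 with sample weights, and 0 to 16 when a library was left out. Comparison of 4D 16H with 4D 8H and the difference of the 0 to 8 h steps gave 0 members in every setting, leave-one-out included. Sample weights were added after seeing the data, and the cause of these moves was not tested. Time points left with 1 library were assumed to vary like the others.

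The replicate numbers did not pair the libraries: 10 of 52 pairs with the same number had correlated deviations over 0.1, with a mean r of 0.01, and 7 of 19 libraries correlated best with their own number. With the number as a block, 11 members were called for 6D minus 5D and 4 for 5D 16H, and none in the other 4 comparisons. In the contrast used for list genes, 72.1% of called loci were higher, against 53.6% with upper quartile scaling and 50.3% with quantile normalization.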

Other observations

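Gene groups outside the members also differed between the same sets of libraries, in the contrast that was chosen after the members' pattern was seen, where 18.3% of all loci were called higher and 7.1% lower and the median log2 difference of all loci was 0.08. None of the genes of the groups below was a member.

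Of 7 type-A cytokinin response regulators tested, which are induced by cytokinin and dampen its signal, 6 were called higher at 4D 8H, 4D 16H and 5D 8H and none lower, also after upper quartile scaling. ARR3 had 32.6 to 57.7 FPKM (median 44.0) against 16.4 to 42.5 FPKM (median 30.3), and ARR4 41.1 to 52.4 FPKM (median 45.5) against 26.7 to 44.6 FPKM (median 33.4). Of 9 genes of nucleolar ribosome assembly, 8 were called higher and none lower (6 with upper quartile scaling), with a list median of 0.42. The list did not stand apart at all 3 ages: its summed level was 316 to 498 FPKM at 4D 8H and 4D 16H but 215 to 253 FPKM at 5D 8H, against 225 to 279.5 FPKM at 4D, 189 to 213 FPKM at 5D, 224 to 265 FPKM at 5D 16H and 173 to 345 FPKM at 6D.

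Heat shock and sugar starvation genes went the other way. Of 11 heat shock genes tested 9 were called lower and none higher, and the list's median log2 difference was -0.81. HSP101 had 10.6 to 28.1 FPKM (median 15.7) against 13.5 to 94.2 FPKM (median 39.5). Of 14 sugar starvation genes 12 were called lower and 1 higher, with a median of -0.35. DIN6, an asparagine synthetase induced by darkness and low sugar, had 14.3 to 32.3 FPKM (median 16.8) against 20.24 to 255.5 FPKM (median 43.9). With upper quartile scaling 9 heat shock and 12 sugar starvation genes were called lower, and no sugar starvation gene was called higher. By age, the summed heat shock level was 1262 to 1452 FPKM at 4D 8H and 4D 16H and 1428 to 1523 FPKM at 5D 8H, which lay within or near the 1359 to 1516 FPKM of 5D, against 1998 to 2235 FPKM at 6D. At 4D it was 1358 to 1902 FPKM and at 5D 16H 1419 to 1981 FPKM, both with overlap. The summed sugar starvation level was 411 to 465 FPKM at 4D 8H and 4D 16H and 580.0 to 628 FPKM at 5D 8H. It was 458 to 792 FPKM at 4D, 652 to 665 FPKM at 5D, 687 to 710 FPKM at 5D 16H and 875 to 1226 FPKM at 6D.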
